A study of Mus musculus with 16 samples.

Results

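The genes described here are 9 conjugating enzymes of mouse liver, the UDP-glucuronosyltransferases Ugt1a1, Ugt2b1, Ugt2b5, Ugt2b34, Ugt2b35 and Ugt2b36 and the sulfotransferases Sult1a1, Sult1d1 and Sult5a1. They were taken by symbol, and all 9 were found among the 27288 genes of the deposited table. The livers came from C57BL/6 mice aged 8 to 10 weeks, labelled either L-Dnm1l KO, a liver-specific knockout of the gene for the mitochondrial fission GTPase DRP1, or WT. The 4 groups held 4 libraries each: knockout-labelled mice given ethanol (EtOH) by the Gao-Binge model, in which ethanol feeding ends with a binge dose, wild-type mice given the same, knockout-labelled mice on the control feeding, and wild-type mice on the control feeding. RNA was sequenced as single 75-base reads. The labels name no Cre driver and no sex, and do not say that each library came from its own mouse, so the spread behind each p-value is that among the libraries, which may be in part technical.

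Both enzyme families attach a polar group to drugs, hormones, bilirubin, bile acids and other small molecules, which prepares them for excretion in bile or urine. UDP-glucuronosyltransferases (UGTs) sit in the endoplasmic reticulum and transfer glucuronic acid from UDP-glucuronic acid, which the enzyme Ugdh makes from UDP-glucose in the cytosol. Sulfotransferases (SULTs) are cytosolic and take sulfate from the donor PAPS, which the synthases Papss1 and Papss2 make. Many of these genes are known targets of the xenobiotic receptors CAR, PXR and AHR, and hepatocytes are their main site in the liver.

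Except for 3 members the genes lie together: 5 of the UGT members and Sult1d1 sit between positions 86889767 and 87569027 of chromosome 5 on build GRCm38 (GENCODE), each on the minus strand apart from Ugt2b35. Ugt1a1 is on chromosome 1 (88211959 to 88218997, plus strand), Sult1a1 on chromosome 7 (126672865 to 126676432, minus strand) and Sult5a1 on chromosome 8 (123140192 to 123158315, minus strand). The files give these genes by identifier, for example ENSMUSG00000030711 for Sult1a1, ENSMUSG00000035811 for Ugt2b35 and ENSMUSG00000089960 for Ugt1a1. The 250 bases before the RefSeq start (GRCm38.p6) are given for 5 members that moved together, since Sult1a1 and Sult1d1 rose together with ethanol and Ugt2b35, Ugt2b36 and Ugt2b5 fell together with ethanol in knockout-labelled livers. Capitals mark letters of the motifs searched on both strands: GTTAAT, the core bound by HNF1, AGGTCA, the core bound by many nuclear receptors, and GCGTG, the core bound by AHR, whose opposite-strand form is CACGC.
Sult1a1, chr7:126676419-126676668, minus strand: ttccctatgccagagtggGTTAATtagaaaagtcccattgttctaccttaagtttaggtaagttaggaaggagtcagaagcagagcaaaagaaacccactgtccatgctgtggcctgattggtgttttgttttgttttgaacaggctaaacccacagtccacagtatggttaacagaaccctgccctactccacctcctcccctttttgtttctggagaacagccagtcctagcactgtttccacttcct
Sult1d1, chr5:87569007-87569256, minus strand: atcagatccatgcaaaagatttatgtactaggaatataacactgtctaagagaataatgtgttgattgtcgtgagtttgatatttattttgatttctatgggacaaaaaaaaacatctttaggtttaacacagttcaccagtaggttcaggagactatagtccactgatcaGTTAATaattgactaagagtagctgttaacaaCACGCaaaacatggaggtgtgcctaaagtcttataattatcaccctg
Ugt2b35, chr5:87000610-87000859, plus strand: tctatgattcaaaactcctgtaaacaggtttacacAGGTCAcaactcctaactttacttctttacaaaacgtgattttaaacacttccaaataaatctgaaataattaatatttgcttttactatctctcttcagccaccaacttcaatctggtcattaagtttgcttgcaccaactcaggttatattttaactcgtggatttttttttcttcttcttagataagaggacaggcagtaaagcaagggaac
Ugt2b36, chr5:87092556-87092805, minus strand: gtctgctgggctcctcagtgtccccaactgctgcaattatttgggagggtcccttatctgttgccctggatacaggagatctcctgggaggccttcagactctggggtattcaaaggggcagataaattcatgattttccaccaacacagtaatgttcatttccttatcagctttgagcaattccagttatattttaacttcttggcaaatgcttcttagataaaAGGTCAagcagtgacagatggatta
Ugt2b5, chr5:87140341-87140590, minus strand: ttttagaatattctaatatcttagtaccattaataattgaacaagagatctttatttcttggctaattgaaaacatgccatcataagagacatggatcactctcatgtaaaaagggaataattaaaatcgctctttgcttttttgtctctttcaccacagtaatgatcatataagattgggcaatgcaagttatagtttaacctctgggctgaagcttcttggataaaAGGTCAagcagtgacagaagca
Ugt2b36 and Ugt2b5 shared the 24-base run gataaaAGGTCAagcagtgacaga, whose last base lies at position -8 of Ugt2b36 and -5 of Ugt2b5, counted back from the start. Over 32851 RefSeq promoter windows of the same length, GTTAAT was found in 6.4%, AGGTCA in 14% and GCGTG in 28.2%. Among the 9 members GTTAAT was in 3 (Sult1a1, Sult1d1 and Ugt1a1), AGGTCA in 3 (Ugt2b35, Ugt2b36 and Ugt2b5) and GCGTG in 1 (Sult1d1). The antioxidant response core TGACNNNGC, in 10.2% of windows, was in none of the members' windows. No motif overlapped another in these windows, and the matches are a description of letters.

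Some of these genes share sequence with relatives. Of the 75-base words of the Ugt1a1 transcript, 78.8% also occur in other genes. The other UGT1A genes, which share their last exons with it, each hold 57.6% to 57.7% of the words. The overlapping predicted gene Gm20528 holds 36.1%. Of 2224 exon bases, 1839 are shared with other genes on either strand, 1311 of them with genes on the same strand, and 385 belong to Ugt1a1 alone. For Ugt2b5 the share is 30.4%, mostly with Ugt2b38, and for Sult1a1 it is 3.4%. The other 6 members are at 0.9% or below. How reads from shared exons were counted is not given in the sources used here, so the values of Ugt1a1 and, to a smaller extent, Ugt2b5 are uncertain.

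Each library held 11425136 to 13864862 reads assigned to genes. Dnm1l does not check the labels, since its total averaged 803 ± 99.3 normalised reads in knockout-labelled ethanol livers, 743 ± 38.4 in wild-type ethanol livers, 642 ± 72.7 in knockout-labelled control livers and 663 ± 56.1 in wild-type control livers (SD, n = 4 each), with no call between genotypes (limma adjusted p = 0.825 on control feeding and 0.59 on ethanol). All 17 hepatocyte markers and all 13 Kupffer cell and macrophage markers were detected in every library. The hepatocyte markers summed to 1543435 to 2185832 normalised reads in knockout-labelled ethanol livers and 1979140 to 2608618 in wild-type ethanol livers, which overlap, and 1707615 to 1769133 in knockout-labelled control livers against 2044312 to 2420833 in wild-type control livers, which do not. Albumin averaged 1173738 of the mean hepatocyte sum of 2249009 in wild-type control livers. Of the 17 hepatocyte markers, 3 were called lower and 0 higher in knockout-labelled livers on each feeding. The Kupffer cell and macrophage markers summed to 6532 to 8316 in knockout-labelled ethanol livers and 1209 to 1792 in wild-type ethanol livers. On control feeding they summed to 7568 to 12010 in knockout-labelled livers and 3224 to 7312 in wild-type livers. Knockout-labelled ethanol library 1 carried pancreas transcripts (a sum of 8690 over 7 markers, against 85.5 to 308 in the other libraries, where 3 to 6 of them were at 0) and library 4 of that group carried red cell transcripts (6158, against at most 2969), so results were also computed without them.

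All values below are normalised reads, reads divided by the authors' size factor for the library. A gene was called changed at an adjusted p under 0.05 over 13256 genes (limma), and all 9 members passed the filter of a mean of at least 10. In knockout-labelled against wild-type livers on control feeding, 2 members were called higher and 2 lower, where 11.6% of all genes were called, 6.4% higher and 5.24% lower. On ethanol 0 members were higher and 3 lower in knockout-labelled livers (9.88% of all genes called, 6.13% higher and 3.75% lower). In wild-type livers 5 members were higher with ethanol and 0 lower (38.0% of genes called, 18.9% higher and 19.0% lower). In knockout-labelled livers 2 were higher with ethanol and 3 lower (19.2% called, 10.2% higher and 9.01% lower). The ethanol effect itself differed between genotypes for 1 member, for which it was lower in knockout-labelled livers (0.347% of genes called, 0.143% higher and 0.204% lower). The median log2 fold change of the 9 members was 0.15, -0.20, 0.42, -0.10 and -0.45 in these 5 comparisons, against medians of -0.0085, -0.0234, -0.0091, -0.0076 and -0.0016 over all genes tested.

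**Figure D1:**
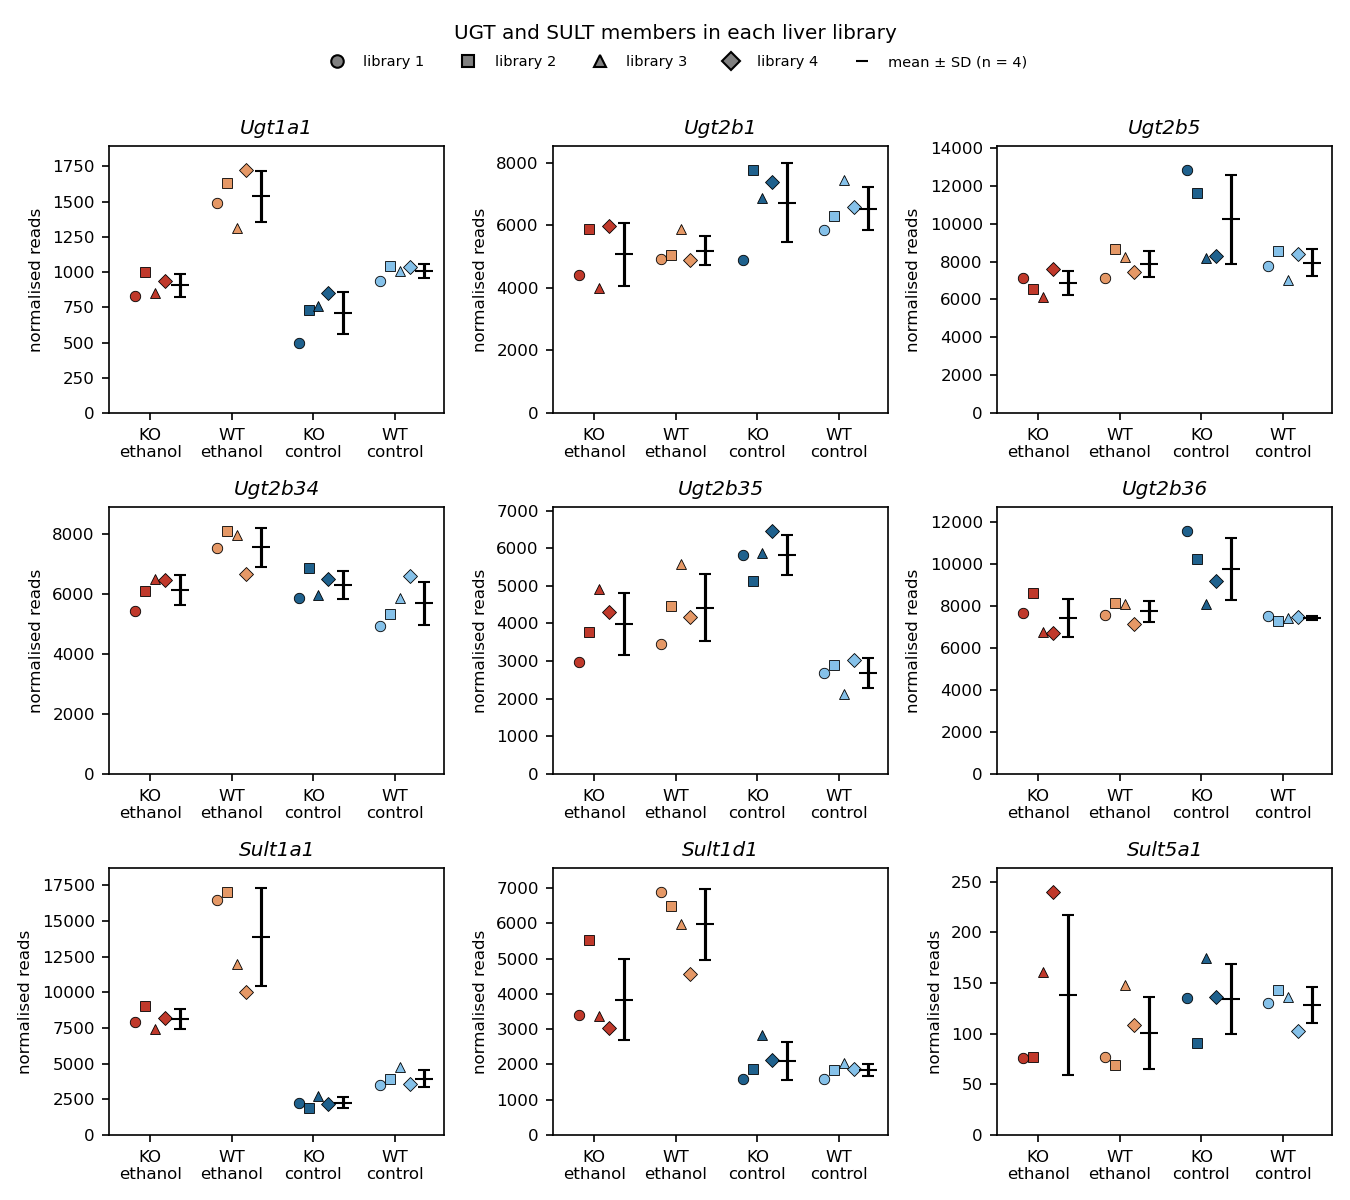
Normalised reads (vertical axis, linear, from 0) of the 9 members in each of the 16 libraries, with symbols for library number and the mean ± SD of the 4 libraries of each group. Sult1a1 and Sult1d1 are highest in wild-type ethanol livers, while Ugt2b35 is highest in knockout-labelled control livers, at 5134 to 6450.

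The value ranges of the groups did not overlap for 4 members in the genotype comparison on control feeding (17.4% of all genes), 3 on ethanol (15.7%), 5 for ethanol in wild-type livers (35.1%) and 4 for ethanol in knockout-labelled livers (23.0%). An exact two-sided permutation test of each member alone cannot go below p = 0.0286 with 4 libraries against 4; these 16 cases reached that value, which is 0.0643 after adjustment over the 36 tests.

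**Figure D2:**
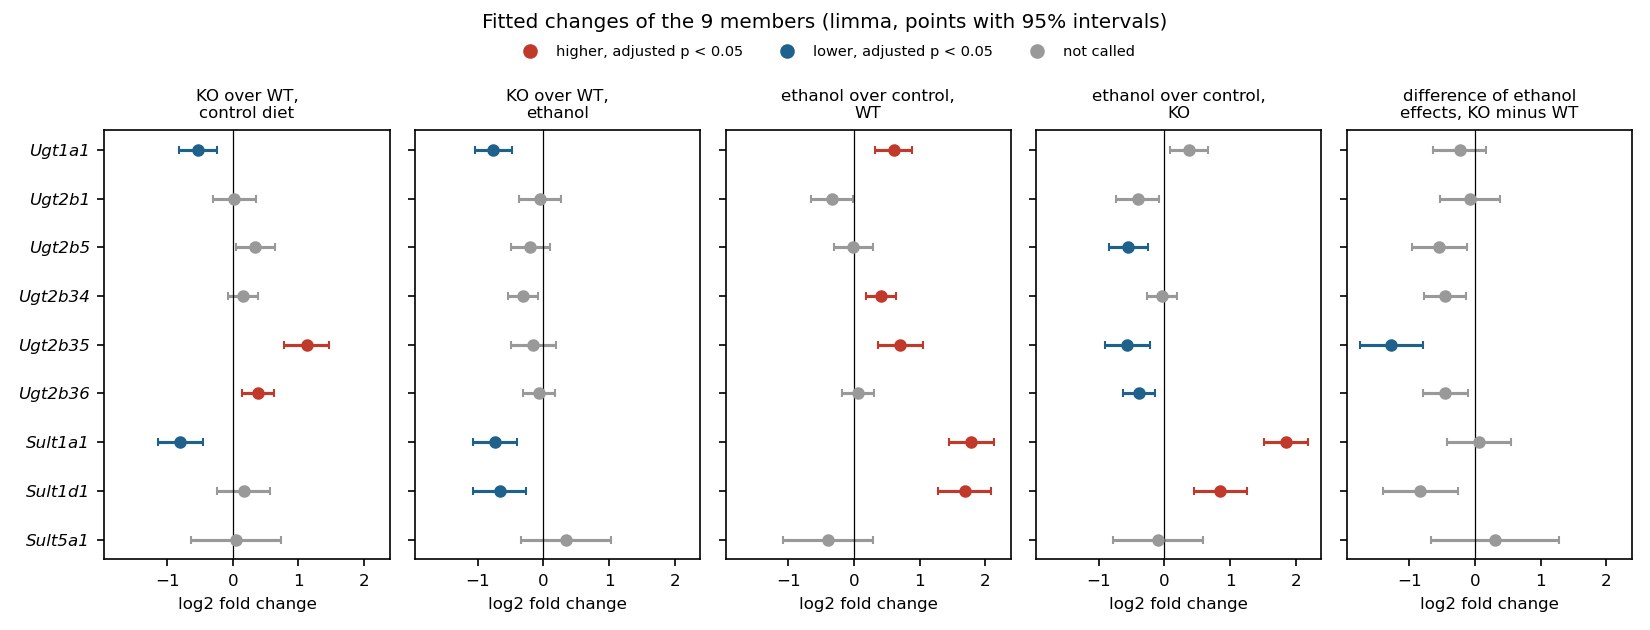
Fitted log2 fold changes of the 9 members (horizontal axis) with 95% intervals from limma, 1 panel for each comparison, coloured by call at an adjusted p under 0.05. Sult1a1 lies to the right for ethanol in both genotypes, at 1.85 in knockout-labelled and 1.79 in wild-type livers, and Ugt2b35 lies farthest to the left, at -1.27, in the panel of the difference between ethanol effects.

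Sult1a1, the phenol sulfotransferase that conjugates small phenols and many drugs, rose with ethanol in both genotypes and was lower in knockout-labelled livers on both feedings. It had 7895, 9058, 7438 and 8215 normalised reads in knockout-labelled ethanol livers and 16458, 17023, 11973 and 10016 in wild-type ethanol livers. On control feeding it had 2271, 1902, 2755 and 2172 in knockout-labelled livers and 3525, 3962, 4772 and 3550 in wild-type livers. The 4 groups do not overlap with each other, and libraries 1 and 2 stand above 3 and 4 in wild-type ethanol livers. With ethanol the level was 3.60-fold higher in knockout-labelled livers (95% interval 2.84 to 4.57, limma adjusted p = 3.56e-06) and 3.45-fold in wild-type livers (2.72 to 4.37, limma adjusted p = 8.44e-07). The log2 difference between these 2 effects was 0.06 ± 0.23 (SE), with an interval of -0.42 to 0.55 and a limma adjusted p of 0.928. Knockout-labelled livers had 0.575 times the wild-type level on control feeding (0.454 to 0.729, limma adjusted p = 0.00431) and 0.601 times on ethanol (0.474 to 0.761, limma adjusted p = 0.00737). The call on ethanol was lost without knockout-labelled libraries 1 and 4 (0.0806) and with libraries 3 and 4 of each group alone (0.204). In bulk liver, fewer hepatocytes and less RNA per hepatocyte cannot be told apart, and the part of the lower hepatocyte and higher Kupffer cell marker sums in the genotype differences of the members was not tested.

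Sult1d1, which in rodents sulfates catecholamines and other small amines and phenols, also rose with ethanol in both genotypes. It had 3398, 5530, 3369 and 3019 normalised reads in knockout-labelled ethanol livers and 6877, 6474, 5976 and 4564 in wild-type ethanol livers, against 1586, 1871, 2847 and 2127 in knockout-labelled control livers and 1600, 1850, 2036 and 1864 in wild-type control livers. Ethanol livers lie above control livers in each genotype without overlap, while the 2 control groups overlap. Ethanol raised it 1.81-fold in knockout-labelled livers (1.36 to 2.39, limma adjusted p = 0.00567) and 3.22-fold in wild-type livers (2.43 to 4.27, limma adjusted p = 7.7e-06). The difference of these effects, -0.84 ± 0.27 on the log2 scale, did not pass (limma adjusted p = 0.194). On control feeding the genotypes did not differ by call (1.12-fold, limma adjusted p = 0.632), and on ethanol the knockout-labelled livers had 0.63 times the wild-type level (0.476 to 0.834, limma adjusted p = 0.0358). That last adjusted p lay near the threshold. Library 2 of the knockout-labelled ethanol group, at 5530, overlaps the wild-type range. Leaving out knockout-labelled ethanol library 1, 3 or 4 or wild-type ethanol library 1, 2 or 3 ended the call (0.0505 to 0.114) while the log2 fold change stayed at -0.66 to -0.57, against -0.67 with all libraries. edgeR did not call it (0.0568), nor did the fit without a trend (0.0554), the fit of the compared groups alone (0.0729) or the fit without knockout-labelled libraries 1 and 4 (0.358, at a log2 fold change of -0.45). The genotype call on ethanol was also lost with libraries 1 and 2 of each group alone (0.0786) and with libraries 3 and 4 alone (0.0722). The call for ethanol in knockout-labelled livers was lost with libraries 3 and 4 alone (0.241).

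Sult5a1 was the lowest member and was not called in any comparison. It had 76, 77, 161 and 240 normalised reads in knockout-labelled ethanol livers and 77, 69, 148 and 108 in wild-type ethanol livers, and 136, 91, 175 and 136 in knockout-labelled control livers against 130, 143, 136 and 103 in wild-type control livers. Libraries 3 and 4 were above libraries 1 and 2 in both ethanol groups, and the 4 groups overlap. Its fold changes ran from 0.758 for ethanol in wild-type livers (interval 0.471 to 1.22) to 1.27 for the genotype on ethanol (0.79 to 2.05), with limma adjusted p from 0.355 to 0.956. With libraries 1 and 2 alone, ethanol in wild-type livers was called lower (limma adjusted p = 0.00961).

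**Figure D3:**
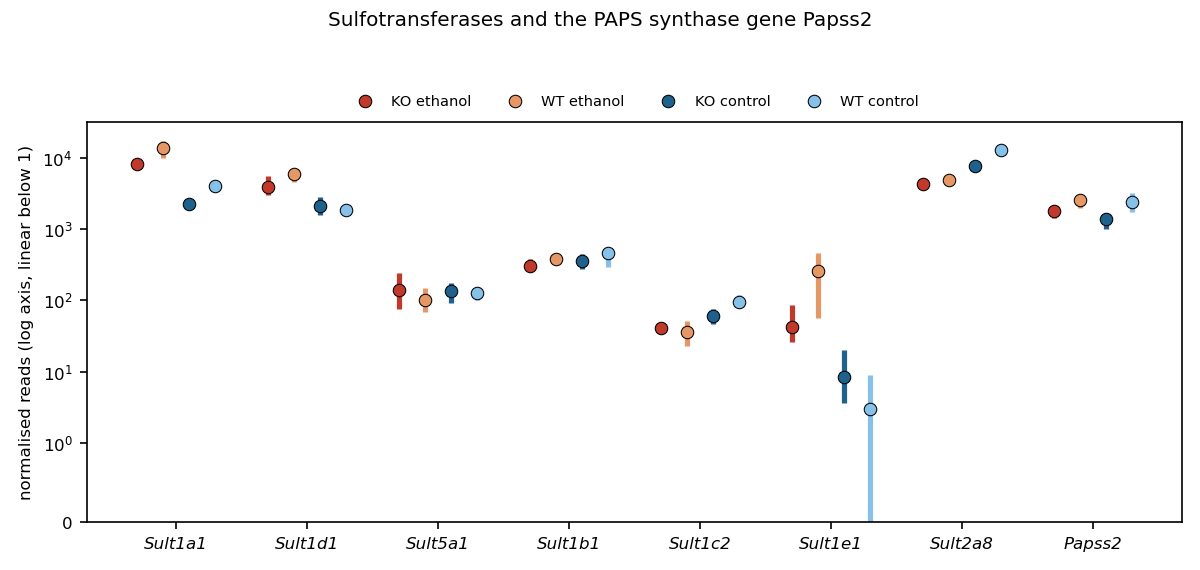
Mean normalised reads (points, log axis that is linear below 1) and the lowest to highest library (bars) of 4 groups for the 3 SULT members, 4 other SULT genes and the PAPS synthase gene Papss2. Sult1e1 is highest in wild-type ethanol livers, at 257, and Sult2a8 is highest in wild-type control livers, at 12679.

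The other sulfotransferases went both ways with ethanol. Of 18 further SULT genes named, 12 were in the table and 5 were tested. Sult2a8, which sulfates bile acids in mouse liver, fell with ethanol: it averaged 4219 ± 643 normalised reads in knockout-labelled ethanol livers, 4874 ± 503 in wild-type ethanol livers, 7546 ± 1140 in knockout-labelled control livers and 12679 ± 1530 in wild-type control livers. Its level with ethanol was 0.559 times the control level in knockout-labelled livers (limma adjusted p = 0.000529) and 0.385 times in wild-type livers (limma adjusted p = 1.76e-06), and on control feeding the knockout-labelled level was 0.593 times wild type (limma adjusted p = 0.00158). Sult1e1, the estrogen sulfotransferase, was scarce on control feeding and averaged 41.8 ± 28.7 in knockout-labelled ethanol livers and 257 ± 169 in wild-type ethanol livers, against 8.42 ± 7.94 in knockout-labelled control livers and 3.01 ± 4.28 in wild-type control livers. Its ethanol rise passed in both genotypes (limma adjusted p = 0.0405 in knockout-labelled and 1.09e-05 in wild-type livers), and on ethanol it was lower in knockout-labelled livers (0.184-fold, limma adjusted p = 0.0481), with overlapping groups. Sult1c2 fell with ethanol in wild-type livers (0.375-fold, limma adjusted p = 9.25e-05), and Sult1b1 and Sult2a7 were not called.

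Among 8 tested genes of a list for PAPS supply, 0 were higher and 1 lower in knockout-labelled livers on control feeding, and 0 were called on ethanol. The list also holds the Golgi transporter genes Slc35b2 and Slc35b3, and Bpnt1 and Impad1, which do not make PAPS. Its counts are therefore not those of supply alone. Papss2, a PAPS synthase, averaged 1764 ± 294 normalised reads in knockout-labelled ethanol livers and 2517 ± 451 in wild-type ethanol livers, and 1389 ± 310 in knockout-labelled control livers against 2422 ± 630 in wild-type control livers. It was lower in knockout-labelled livers on control feeding (0.577-fold, limma adjusted p = 0.0145), as Sult1a1 was. With ethanol 1 gene was higher and 2 lower in knockout-labelled livers, and 2 were higher and 1 lower in wild-type livers: Suox, which oxidises sulfite to sulfate, rose in both (1.37-fold in knockout-labelled livers, limma adjusted p = 0.0224, and 1.27-fold in wild-type livers, limma adjusted p = 0.0451), and Slc35b2, the Golgi PAPS transporter, fell in both (0.791-fold, limma adjusted p = 0.0477, and 0.649-fold, limma adjusted p = 0.000521).

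Ugt1a1, the enzyme that conjugates bilirubin, was lower in knockout-labelled livers on both feedings and rose with ethanol in wild-type livers. It had 833, 1001, 850 and 936 normalised reads in knockout-labelled ethanol livers and 1489, 1630, 1312 and 1723 in wild-type ethanol livers. On control feeding it had 500, 729, 761 and 854 in knockout-labelled livers and 938, 1043, 1005 and 1039 in wild-type livers. The genotypes do not overlap on either feeding; ethanol and control overlap in knockout-labelled livers and not in wild-type livers. Knockout-labelled livers had 0.694 times the wild-type level on control feeding (0.57 to 0.846, limma adjusted p = 0.0183) and 0.59 times on ethanol (0.484 to 0.719, limma adjusted p = 0.00133). With ethanol the level was 1.29-fold in knockout-labelled livers (limma adjusted p = 0.0633, not called) and 1.52-fold in wild-type livers (1.25 to 1.85, limma adjusted p = 0.00221), and the difference between these effects did not pass (-0.23 ± 0.19 on the log2 scale, limma adjusted p = 0.628). The control-feeding call was lost without wild-type library 4 (0.0534) and with libraries 3 and 4 alone (0.166). For ethanol in knockout-labelled livers a call appeared without control library 4 of that genotype (0.0278), with libraries 1 and 2 alone (0.0334) and with a replicate block (0.0373).

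**Figure D4:**
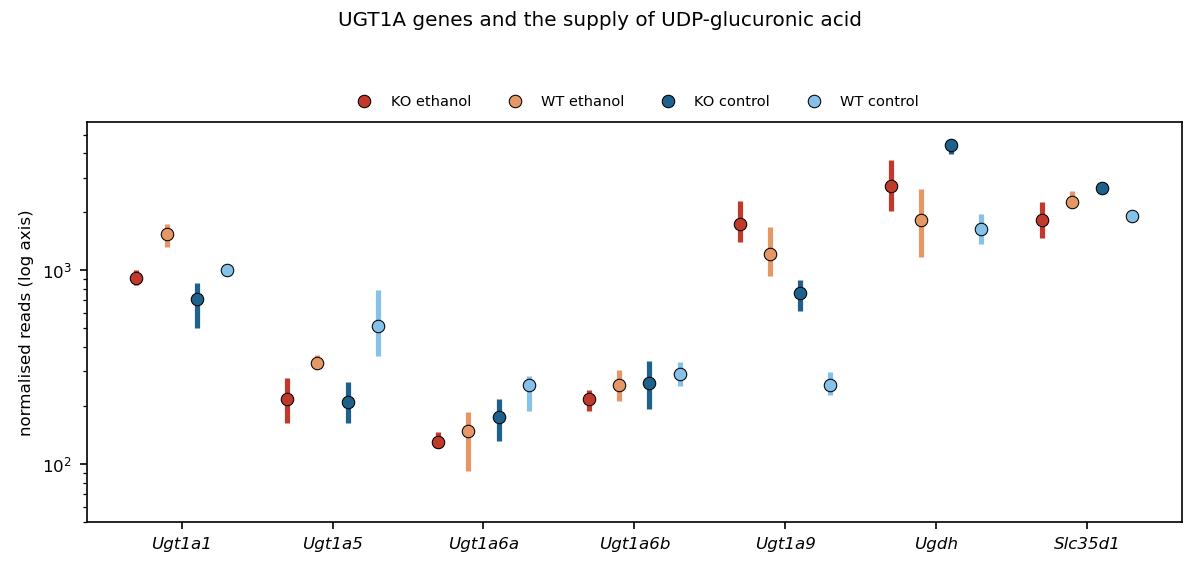
Mean normalised reads (points, log axis) and the lowest to highest library (bars) of 4 groups for Ugt1a1, 4 other UGT1A genes, Ugdh and Slc35d1. Ugt1a9 is highest in knockout-labelled ethanol livers, at 1724, and lowest in wild-type control livers, at 256.

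The UGT1A neighbours share their last exons with Ugt1a1. Ugt1a9, which conjugates phenols, averaged 1724 ± 405 normalised reads in knockout-labelled ethanol livers, 1214 ± 319 in wild-type ethanol livers, 762 ± 127 in knockout-labelled control livers and 256 ± 30.3 in wild-type control livers. It was 2.95-fold higher in knockout-labelled livers on control feeding (limma adjusted p = 2.13e-05), where Ugt1a1 was lower. With ethanol it rose 2.24-fold in knockout-labelled livers (limma adjusted p = 0.000404) and, as Ugt1a1 did, in wild-type livers (4.64-fold, limma adjusted p = 2.79e-07). Ugt1a5, like Ugt1a1, was lower in knockout-labelled livers on control feeding, with 210 ± 45.5 against 518 ± 192 normalised reads in wild-type livers (0.419-fold, limma adjusted p = 0.00124), and Ugt1a6a fell with ethanol in wild-type livers (0.574-fold, limma adjusted p = 0.00491). Ugt1a6b and Ugt1a7c were not called.

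Ugt2b35, a member of the UGT2B group of steroid, bile acid and drug conjugating enzymes, was the member whose response to ethanol differed between genotypes. It had 2980, 3766, 4910 and 4295 normalised reads in knockout-labelled ethanol livers and 3458, 4460, 5586 and 4169 in wild-type ethanol livers, and 5816, 5134, 5873 and 6450 in knockout-labelled control livers against 2697, 2901, 2123 and 3028 in wild-type control livers. The control groups stand apart, the lowest knockout-labelled library at 5134 and the highest wild-type library at 3028, and the ethanol groups overlap each other. On control feeding it was 2.18-fold higher in knockout-labelled livers (1.72 to 2.76, limma adjusted p = 0.000237), a call kept in all 30 alternatives run. On ethanol the ratio was 0.901 (limma adjusted p = 0.625). Ethanol lowered it to 0.676 times the control level in knockout-labelled livers (0.534 to 0.858, limma adjusted p = 0.0223) and raised it 1.63-fold in wild-type livers (1.29 to 2.07, limma adjusted p = 0.00263). The difference of the effects was -1.27 ± 0.23 on the log2 scale (-1.76 to -0.79, limma adjusted p = 0.0306). That difference lost its call without knockout-labelled ethanol library 1, 2 or 4, wild-type ethanol library 2, knockout-labelled control library 4 or wild-type control library 1 (limma adjusted p from 0.0504 to 0.0697), at log2 values of -1.32 to -1.14. In knockout-labelled livers the fall, -0.56 on the log2 scale, lost its call at -0.55 to -0.43 without knockout-labelled ethanol library 1 (0.0781) or 2 (0.0565) or knockout-labelled control library 4 (0.0572). Without a mean-variance trend the difference was not called, at the same -1.27 (0.0574). Without both knockout-labelled ethanol libraries 1 and 4 the adjusted p was 0.228 for the difference, at -1.14, and 0.174 for the fall, at -0.43. With libraries 3 and 4 of each group alone it was 0.265, at -1.35, and 0.242, at -0.42.

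Ugt2b36 and Ugt2b5, neighbours with the shared 24-base run before their starts, fell with ethanol in knockout-labelled livers and were highest in knockout-labelled control livers. Ugt2b36 had 7645, 8623, 6740 and 6719 normalised reads in knockout-labelled ethanol livers, 7571, 8160, 8119 and 7143 in wild-type ethanol livers, 11561, 10224, 8087 and 9215 in knockout-labelled control livers and 7503, 7277, 7408 and 7463 in wild-type control livers. Ugt2b5 had 7148, 6546, 6155 and 7594 in knockout-labelled ethanol livers, 7134, 8653, 8265 and 7472 in wild-type ethanol livers, 12823, 11618, 8177 and 8308 in knockout-labelled control livers and 7755, 8551, 7005 and 8419 in wild-type control livers. In both genes knockout-labelled control libraries 1 and 2 are the 2 highest of the 16, and libraries 3 and 4 of that group are nearer the rest. Ugt2b36 was 1.31-fold higher in knockout-labelled livers on control feeding (1.11 to 1.54, limma adjusted p = 0.0367), and Ugt2b5, at 1.27-fold, was not called (limma adjusted p = 0.127). With ethanol Ugt2b36 was at 0.763 times the control level in knockout-labelled livers (0.646 to 0.902, limma adjusted p = 0.0244) and at 1.04 in wild-type livers (limma adjusted p = 0.702). Ugt2b5 was at 0.682 times (0.555 to 0.838, limma adjusted p = 0.0115) and at 0.994 (limma adjusted p = 0.968). In knockout-labelled livers the ethanol and control groups overlapped for Ugt2b36, with ethanol library 2 at 8623 above control library 3 at 8087. For Ugt2b5 they did not overlap. The differences between the ethanol effects did not pass (limma adjusted p = 0.238 for Ugt2b36 and 0.248 for Ugt2b5), and on ethanol neither gene was called between genotypes (0.955-fold and 0.87-fold, limma adjusted p = 0.778 and 0.413).

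The adjusted p of Ugt2b36 lay near the threshold in both comparisons that called it. On control feeding the call was lost when knockout-labelled library 1, 2 or 4 or any wild-type library was left out (limma adjusted p from 0.0528 to 0.0973), while the log2 fold change stayed at 0.30 to 0.41, against 0.39 with all libraries. It was lost for ethanol in knockout-labelled livers when ethanol library 3 or 4 or control library 1 or 2 was left out (0.0679 to 0.077), with log2 fold changes of -0.36 to -0.31, against -0.39 with all libraries. Both calls were also lost, at the same fold changes, without the filter on low genes (0.0865 and 0.0632) and when the compared groups were fitted alone (0.0681 and 0.0756). With libraries 3 and 4 of each group alone the limma adjusted p was 0.278, at a log2 fold change of 0.215, and 0.114, at -0.359. Without knockout-labelled ethanol libraries 1 and 4 it was 0.0575, at 0.386, and 0.164, at -0.346. The call of Ugt2b5 for ethanol in knockout-labelled livers was kept with each library left out, and was lost with libraries 3 and 4 of each group alone (0.302). With libraries 1 and 2 alone Ugt2b5 was called higher in knockout-labelled livers on control feeding (0.0292) and its ethanol effects differed (0.0485).

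Ugt2b34 rose with ethanol in wild-type livers. It had 5414, 6108, 6497 and 6448 normalised reads in knockout-labelled ethanol livers and 7537, 8082, 7944 and 6651 in wild-type ethanol livers, and 5860, 6848, 5946 and 6483 in knockout-labelled control livers against 4941, 5337, 5864 and 6585 in wild-type control livers. Wild-type ethanol livers lie above each other group apart from overlap with knockout-labelled control library 2, and the control groups overlap. The ethanol change was 0.973-fold in knockout-labelled livers (limma adjusted p = 0.827) and 1.33-fold in wild-type livers (1.14 to 1.56, limma adjusted p = 0.00614), with no call of the difference (-0.45 ± 0.15 on the log2 scale, limma adjusted p = 0.208). Knockout-labelled livers on ethanol had 0.81 times the wild-type level, without overlap and without a call (limma adjusted p = 0.0854; DESeq2 called it, at 0.0423). The rise in wild-type livers was not called with libraries 3 and 4 alone (0.226), and the difference was called with libraries 1 and 2 alone (0.047).

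Ugt2b1, whose rat counterpart conjugates bisphenol A, was not called in any comparison. It had 4424, 5899, 4004 and 5981 normalised reads in knockout-labelled ethanol livers and 4942, 5065, 5878 and 4881 in wild-type ethanol livers, and 4910, 7765, 6867 and 7390 in knockout-labelled control livers against 5843, 6292, 7438 and 6595 in wild-type control livers. The ethanol and control groups overlap in both genotypes, and so do the genotypes on both feedings. The ratio of ethanol to control was 0.754 in knockout-labelled livers (0.602 to 0.944, limma adjusted p = 0.0723) and 0.794 in wild-type livers (0.634 to 0.995, limma adjusted p = 0.0993). Without knockout-labelled control library 1, at 4910, or in DESeq2, it was called lower with ethanol in knockout-labelled livers (adjusted p = 0.0158 and 0.0484), and in wild-type livers it was called lower when the compared groups were fitted alone (limma adjusted p = 0.0331). Between genotypes the ratio was 1.02 on control feeding (0.813 to 1.27) and 0.966 on ethanol (0.771 to 1.21).

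Outside the UGT1A cluster 5 further UGT genes were tested, and 3 of them, Ugt2b37, Ugt2b38 and Ugt3a1, were called in some comparison. Of 16 further UGT genes named, 14 were in the table and 10 were tested, UGT1A genes included; 2 were higher and 2 lower in knockout-labelled livers on control feeding, 0 were called on ethanol, 1 was higher and 2 lower with ethanol in knockout-labelled livers, and 1 was higher and 3 lower with ethanol in wild-type livers. Of all genes tested, 11.6% were called in either direction for genotype on control feeding, 9.88% for genotype on ethanol, 19.2% for ethanol in knockout-labelled livers and 38.0% for ethanol in wild-type livers. Ugt2b38 was nearly absent with ethanol: it averaged 6.60 ± 9.12 normalised reads in knockout-labelled ethanol livers and 5.51 ± 2.74 in wild-type ethanol livers, against 49.8 ± 12.9 in knockout-labelled control livers and 107 ± 62.2 in wild-type control livers (limma adjusted p = 0.000974 in knockout-labelled and 7.96e-05 in wild-type livers). It shares 28.4% of the 75-base words of Ugt2b5, which had far more reads. Ugt2b37 was 2.83-fold higher in knockout-labelled livers on control feeding (limma adjusted p = 0.0396) and lower with ethanol in knockout-labelled livers (0.32-fold, limma adjusted p = 0.0174), the directions of Ugt2b36. Ugt3a1 was lower in knockout-labelled livers on control feeding (0.706-fold, limma adjusted p = 0.0466), and Ugt2a3 and Ugt3a2 were not called.

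Among genes that supply UDP-glucuronic acid, Ugdh and Slc35d1 were higher in knockout-labelled livers on control feeding. The list of 10 tested genes also holds Uxs1, which uses up UDP-glucuronic acid, and the sugar nucleotide transporter gene Slc35a3, so its counts are not those of supply alone. Of the 10, 3 were higher and 1 lower in knockout-labelled livers on control feeding, and 0 were called on ethanol. With ethanol 0 were higher and 3 lower in knockout-labelled livers, and 1 was higher and 3 lower in wild-type livers. Ugdh averaged 2713 ± 751 normalised reads in knockout-labelled ethanol livers, 1821 ± 638 in wild-type ethanol livers, 4403 ± 350 in knockout-labelled control livers and 1626 ± 241 in wild-type control livers. It was 2.72-fold higher in knockout-labelled livers on control feeding (limma adjusted p = 0.000298) and fell with ethanol in them (0.601-fold, limma adjusted p = 0.0235). Slc35d1, which carries UDP-glucuronic acid into the endoplasmic reticulum, was 1.39-fold higher there (limma adjusted p = 0.0108). It averaged 1823 ± 324 in knockout-labelled ethanol livers, 2247 ± 207 in wild-type ethanol livers, 2648 ± 137 in knockout-labelled control livers and 1904 ± 112 in wild-type control livers, and its ethanol effect was lower in knockout-labelled livers (0.578-fold, limma adjusted p = 0.0417), as that of Ugt2b35 was.

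Levels were compared between members per kilobase of exon. In wild-type control livers the order was Ugt2b5 (4269 ± 382 normalised reads per kb), Ugt2b36 (3600 ± 47.9), Sult1a1 (2622 ± 386), Ugt2b1 (2543 ± 261), Ugt2b34 (1318 ± 165), Ugt2b35 (800 ± 119), Sult1d1 (747 ± 73), Ugt1a1 (452 ± 21.9) and Sult5a1 (29.0 ± 4). Sult1a1 overlapped Ugt2b1, and Ugt2b35 overlapped Sult1d1. In knockout-labelled control livers Ugt2b5 and Ugt2b36 were again highest, at 5507 ± 1260 and 4746 ± 718 per kb, and overlapped, Ugt2b35 stood at 1732 ± 160 and Sult1a1 was the fifth, at 1510 ± 236. With ethanol Sult1a1 was the highest member per kb in both genotypes, at 5409 ± 453 in knockout-labelled and 9202 ± 2270 in wild-type livers, above Ugt2b5 at 3693 ± 343 and 4242 ± 377 without overlap. The per-kb level of Ugt1a1 is limited by its shared exons. Summed over the 5 UGT2B members, the level was 29474 ± 1770 normalised reads in knockout-labelled ethanol livers, 32792 ± 2730 in wild-type ethanol livers, 38839 ± 3070 in knockout-labelled control livers and 30257 ± 1400 in wild-type control livers. The 3 SULT members summed to 12119 ± 1710, 19941 ± 4330, 4517 ± 875 and 5918 ± 743 in the same groups (SD, n = 4 each).

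The genes whose pattern over the 16 libraries was nearest to each member were found from the root mean square difference of centred log2 values, outside both families. Nearest to Sult1a1 were Por, the electron donor of cytochromes P450 (0.32, where Sult1a1 itself varied by 1.01), and Mat1a, which makes S-adenosylmethionine in liver (0.34). For Sult1d1 they were Serinc3 (0.18) and Epb41 (0.21), for Ugt1a1 Apc (0.16) and Plcb1 (0.17), and for Ugt2b36 the proteasome subunit gene Psma4 (0.13) and the aldehyde reductase gene Akr1a1 (0.13). For Ugt2b35, which varied by 0.46, they were Kti12 (0.26) and Pelo (0.27). Por averaged 10750 ± 2040 normalised reads in knockout-labelled ethanol livers, 17864 ± 4400 in wild-type ethanol livers, 4227 ± 963 in knockout-labelled control livers and 4427 ± 594 in wild-type control livers.

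Among 5 genes that export conjugates, 2 were higher and 1 lower with ethanol in each genotype, and those that rose were Abcc4 and Abcc3, transporters on the blood side of the hepatocyte. Abcc4 averaged 236 ± 75.3 normalised reads in knockout-labelled ethanol livers, 344 ± 54 in wild-type ethanol livers, 47.4 ± 10.9 in knockout-labelled control livers and 15.04 ± 1.42 in wild-type control livers. Its ethanol rise was 4.77-fold in knockout-labelled livers (limma adjusted p = 6.52e-06) and 21.3-fold in wild-type livers (limma adjusted p = 2.03e-09), and the effects differed (0.224-fold, limma adjusted p = 0.0105). Abcc3 rose 1.71-fold in knockout-labelled livers (limma adjusted p = 0.000404) and 2.62-fold in wild-type livers (limma adjusted p = 4.92e-07). A list named for the removal of conjugates held Gusb, Arsa, Arsb, Sumf1 and Sumf2. Not all of these genes act on conjugates of the members, so its counts are not those of conjugate removal. Of the 5, 1 was higher and 1 lower with ethanol in knockout-labelled livers, and 1 was higher and 0 lower in wild-type livers. Arsa, the arylsulfatase of lysosomes, rose 1.77-fold in knockout-labelled livers (limma adjusted p = 0.000732) and 1.59-fold in wild-type livers (limma adjusted p = 0.00122).

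The list of regulators had 16 genes tested, among them the enzyme gene Por, which is not a regulator. In it the xenobiotic receptor genes Nr1i2 (PXR) and Nr1i3 (CAR) and the stress response factor gene Nfe2l2 (NRF2) were not called in any comparison. On control feeding 1 gene of the list was higher and 1 lower in knockout-labelled livers, and on ethanol 0 were higher and 2 lower, Por included. With ethanol 2 were higher and 2 lower in knockout-labelled livers, and 4 were higher and 3 lower in wild-type livers. The nuclear receptor gene Ppara was lower in knockout-labelled livers on control feeding (0.469-fold, limma adjusted p = 0.00431), and its ethanol effect was higher in them than in wild-type livers (2.97-fold, limma adjusted p = 0.0417). Ahr was 1.81-fold higher with ethanol in wild-type livers (limma adjusted p = 0.00214) and lower in knockout-labelled livers on ethanol (0.644-fold, limma adjusted p = 0.043), and Por was lower there too (0.609-fold, limma adjusted p = 0.0246). Among 8 target genes of CAR, PXR, AHR and NRF2, 2 were higher and 1 lower with ethanol in knockout-labelled livers and 5 were higher and 1 lower in wild-type livers. Between genotypes, 3 of these targets were higher and 0 lower in knockout-labelled livers on control feeding, and 1 was higher and 1 lower on ethanol. The ethanol effect was higher in knockout-labelled livers for 0 of them and lower for 2, against 0.143% and 0.204% of all genes. The CAR target Cyp2b10 averaged 10093 ± 3740 normalised reads in knockout-labelled ethanol livers, 16936 ± 1960 in wild-type ethanol livers, 42.3 ± 24.9 in knockout-labelled control livers and 5.07 ± 4.11 in wild-type control livers. The AHR target Cyp1a2 was lower in knockout-labelled livers on ethanol (0.534-fold, limma adjusted p = 0.00334), as Sult1a1 and Ugt1a1 were. On control feeding, where Sult1a1 and Ugt1a1 were also lower, Cyp1a2 was not. It averaged 4873 ± 1380 normalised reads in knockout-labelled control livers and 3884 ± 343 in wild-type control livers.

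Genes of the pericentral zone, the hepatocytes around the central vein, moved with genotype beside Sult1a1 and Ugt1a1. Of 14 pericentral genes 1 was higher and 7 lower in knockout-labelled livers on control feeding, and 0 were higher and 6 lower on ethanol. Their summed level was 70255 to 99331 normalised reads in knockout-labelled ethanol livers and 127848 to 165855 in wild-type ethanol livers, and 86933 to 107463 in knockout-labelled control livers against 139526 to 171930 in wild-type control livers, with no overlap on either feeding. Most of this pericentral sum is Cyp2e1. On control feeding Cyp2e1 averaged 52058 ± 8260 of a mean sum of 96538 in knockout-labelled livers and 95025 ± 11100 of 159187 in wild-type livers. On ethanol it averaged 52136 ± 9610 of 87917 and 86042 ± 19600 of 149517. The pericentral sum therefore describes Cyp2e1 more than the zone. Of 12 periportal genes 1 was higher and 0 lower on control feeding and 2 were higher and 0 lower on ethanol. The periportal sum was also lower in knockout-labelled control livers (975069 to 1015542 normalised reads, against 1201392 to 1383085 in wild-type control livers, without overlap). It overlapped on ethanol (864218 to 1355223 in knockout-labelled and 1057445 to 1367776 in wild-type livers). Most of that sum is albumin, which averaged 872532 ± 22700 of a mean sum of 993252 in knockout-labelled control livers. In wild-type control livers albumin averaged 1173738 ± 84700 of 1302661, so the sum describes albumin more than the zone. The part of zonation in the values of Sult1a1 and Ugt1a1 was not tested.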

How the data were processed

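The deposited values are a signal: the authors divided each gene's reads by a factor for its library. Multiplied back, 100% of them came out as whole reads within 0.01 of a read. The recovered size factors (0.814 to 1.2628) and median-of-ratios factors computed here agree within a relative 3.9e-05. The submitters' processing notes name HISAT2 2.1.0.13, HTSeq, edgeR and build GRCm38. They name no annotation release, no strand setting and no tool for the size factors, so a gene and an antisense partner cannot be told apart. Of 27288 identifiers 27242 matched a GENCODE symbol on GRCm38 and 46 did not.

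Groups came from the genotype and treatment labels. limma 3.58.1 in R 4.3.3 was run on log2(value + 1), which understates changes of low genes, for 13256 genes with a mean of at least 10, in 1 fit of 4 group means over the 16 libraries with a mean-variance trend and 5 contrasts; Benjamini-Hochberg adjustment ran over all genes tested, and every adjusted p without another tool's name is limma's. The script was checked on simulated data. As alternatives the pseudocount was set to 0.25 or 4, the filter was dropped or raised to 50 and the trend was left out; others were the compared groups alone, TMM factors, a replicate block, each library left out, libraries 1 and 2 or 3 and 4 of every group, no knockout-labelled ethanol libraries 1 and 4, and, on the recovered reads, edgeR 4.0.16 (quasi-likelihood) and DESeq2 1.42.0. A block in the ethanol libraries alone was chosen after seeing the data.

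The labels do not say what a library number marks. Deviations of same-numbered libraries from their group means correlated at 0.102 to 0.246 between the ethanol groups, each above 0.1. By the rule used the numbers were read as pairing there, from the data. The main fit held group means only and left this pairing out, and the replicate blocks were run as alternatives. Libraries 1 and 2, and 3 and 4, of the 2 groups correlated alike under different numbers (0.098 to 0.199), and whether the number or the set is shared cannot be told apart. In the other comparisons same-numbered libraries correlated at -0.125 to 0.036.

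The members and gene lists were chosen with earlier results of these data known. All members are described. Of each other list up to 3 called genes with the smallest p per comparison may be named, UGT and SULT genes in full, and for each member the 2 nearest genes by pattern. Regulators that were not called (Nr1i2, Nr1i3, Nfe2l2), the pericentral and marker lists as sums, and Dnm1l stand outside that rule. Levels per kb used the union of GENCODE exons. With the longest transcript instead, Ugt2b36 passed Ugt2b5 in knockout-labelled ethanol livers. In wild-type control livers these genes then overlapped (lowest Ugt2b5 library 3770, highest Ugt2b36 library 3974 per kb), which they did not with the exon union.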

Additional observations from a re-analysis of the deposited data

Results flagged for a closer look

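Sult1d1 in knockout-labelled ethanol livers has a library far from the rest of its group: library 2 held 5530 normalised reads, where libraries 1, 3 and 4 held 3398, 3369 and 3019. Of 36 sets of 4 libraries examined for such a gap (9 members in 4 groups) this was the 1 set marked, and chance marks about 1 in 20. That library is above the lowest wild-type ethanol library, at 4564.

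The ethanol effect on Ugt2b35 differed between the genotypes, at -1.27 on the log2 scale for knockout-labelled minus wild-type livers (limma adjusted p = 0.0306). Ethanol livers were below control livers in knockout-labelled mice and above them in wild-type mice, in each case without overlap of the libraries.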

How the results depend on the processing

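Over the 45 combinations of member and comparison, the call and direction stayed in 573 of 621 alternatives and in 668 of 720 fits without 1 library; 25 and 27 lost a call, 9 and 2 gained one, and 14 and 23 changed sign, all of them in values that were not called. The cause of these changes was not tested. Depth limits Sult5a1 most, with 69 to 240 normalised reads. The count of members called moved as follows. With libraries 3 and 4 of every group it was 2 for the genotype on control feeding, 1 for the genotype on ethanol, 1 for ethanol in knockout-labelled livers and 0 for the difference of effects. Without knockout-labelled ethanol libraries 1 and 4 it was 1, 3 and 0 in the last 3 of these. It was 0 for the difference without a trend and 3 with libraries 1 and 2. With 1 library left out it ran from 2 (without wild-type control library 4) to 4 for the genotype on control feeding, and from 0 to 1 for the difference.

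The number of all genes called fell to 496 for the genotype on ethanol, 1003 for ethanol in knockout-labelled livers and 0 for the difference without knockout-labelled ethanol libraries 1 and 4, and to 540, 697 and 0 with libraries 3 and 4, which also gave 2863 for ethanol in wild-type livers. For the difference, 16 genes were called without a trend, 30 in edgeR, 270 in DESeq2, 626 with libraries 1 and 2, and 24 with a replicate block. With 1 library left out the number ran from 922 (without wild-type control library 4) to 1691 for the genotype on control feeding, from 848 (without knockout-labelled ethanol library 3; 857 without wild-type ethanol library 1) to 1685 for the genotype on ethanol, and from 8 (without knockout-labelled ethanol library 1) to 215 (without wild-type ethanol library 3) for the difference. The replicate block gave 1228 genes for the genotype on ethanol when set over all libraries and 1508 when set over the ethanol libraries alone, against 1310 without it, and neither changed a call of a member there; elsewhere the block over all libraries changed that of Ugt1a1 for ethanol in knockout-labelled livers.

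The log2 values that changed sign were these. On control feeding Ugt2b34 was at -0.001 with libraries 3 and 4 and Sult5a1 at -0.295 with libraries 1 and 2. On ethanol Ugt2b1 was at 0.03 and Ugt2b36 at 0.047 with libraries 1 and 2. For ethanol in wild-type livers Ugt2b5 was at 0.003 with TMM factors and at 0.033 with libraries 3 and 4, which put Sult5a1 at 0.095. For ethanol in knockout-labelled livers Ugt2b34 was at 0.007 without knockout-labelled ethanol libraries 1 and 4 and at 0.06 with libraries 3 and 4, and Sult5a1 at 0.056 in edgeR, 0.045 in DESeq2 and 0.346 with libraries 3 and 4. In the difference Ugt2b1 was at 0.004 and Sult1a1 at -0.139 with libraries 1 and 2. With 1 library left out, Ugt2b1 ran from -0.05 to 0.17 for the genotype on control feeding, from -0.136 to 0.057 on ethanol and from -0.22 to 0.031 for the difference. Sult5a1 ran from -0.096 to 0.217 for the genotype on control feeding, from -0.418 to 0.132 for ethanol in knockout-labelled livers and from -0.018 to 0.532 for the difference. Ugt2b5 ran from -0.068 to 0.037 for ethanol in wild-type livers, Ugt2b34 from -0.072 to 0.018 for ethanol in knockout-labelled livers and Sult1a1 from -0.082 to 0.173 for the difference.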
